A study of Homo sapiens with 10 samples.

Results

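Vesicles coated with COPI and COPII move proteins between the endoplasmic reticulum and the Golgi apparatus. The group described here holds 41 genes of this transport machinery out of the 16734 genes of the deposited expression table, taken by their symbols, and all 41 were found. They comprise 12 genes of the COPII coat and its assembly, 8 subunits of the COPI coat, 3 genes of the ARF switch that recruits COPI, 12 cargo receptors, and 6 SNAREs, tethers and Golgi membrane proteins. RNA was measured in MIA PaCa-2, an established human line of pancreatic ductal adenocarcinoma cells. One group of 5 libraries came from cells given 10 µM hydroxyprogesterone caproate (HPC), a synthetic progestin ester, for 24 h. The other 5 came from cells given the same volume of its solvent, DMSO, for the same time. All 10 libraries share this 1 line, so they bear on no other cells. The labels call them biological replicates without naming cultures or days. The p-values set the difference between groups against the spread of these libraries, and whether that spread covers independent cultures is not known.

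COPII forms at exit sites of the endoplasmic reticulum when the GTPase SAR1, loaded with GTP by PREB, recruits the inner coat SEC23 and SEC24 and then the outer cage of SEC13 and SEC31. SEC24 selects cargo directly, or through receptors that span the membrane. COPI, a coat of 7 kinds of subunit recruited by ARF GTPases, carries receptors and escaped endoplasmic reticulum proteins back from the Golgi. SNAREs and tethers then dock and fuse the carriers. Genes of this machinery are known to be induced when the secretory pathway is loaded, by transcription factors such as XBP1, ATF6 and the CREB3 family.

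Recovered reads summed to between 71602736 and 82218527 per DMSO library and between 65851176 and 74477071 per HPC library. Levels are given as FPKM, fragments per kilobase of gene, scaled for library depth, which are shares of a library, so that amounts of RNA per cell were not measured and fewer cells cannot be told apart from less RNA per cell. The length in the deposited FPKM was close to the summed length of all annotated transcripts of a gene, which for these 41 genes exceeded the merged exon length by 1.01 to 8.13 times. Deposited FPKM is therefore used to compare libraries for 1 gene, and levels of different genes are compared as reads per kilobase of merged exons, scaled to the recovered reads of a library (length-scaled reads). Of 6 epithelial markers, KRT8, KRT18 and KRT19 were above 1 FPKM, while KRT7, EPCAM and CDH1 did not exceed 0.264, 0.0111 and 0.00606 FPKM. The summed epithelial markers were at 182 to 199 FPKM in DMSO and 213 to 229 in HPC, although KRT19 went from between 22.2 and 26.6 to between 8.71 and 11.2 FPKM, and the 5 mesenchymal markers, mostly VIM, at 708 to 745 and 323 to 347 FPKM. Of the mesenchymal markers, COL1A2 went from between 24.4 and 26.7 FPKM in DMSO to between 0.704 and 0.975 in HPC. Immune markers summed to 2.37 to 3.34 FPKM in DMSO and 8.33 to 10.9 in HPC, all from CD68 apart from PTPRC, which is at 0 in DMSO and at most 0.00291 FPKM in HPC. Endothelial markers summed to 1.43 to 1.53 FPKM and 0.0152 to 0.0368 FPKM, mostly CDH5 in DMSO, and acinar and endocrine markers in the table did not exceed 0.0268 FPKM. The part of these shifts in the results was not tested.

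Most of the transport genes rose with HPC, and within several families 1 gene rose while a close relative fell or was not called: SEC23B beside SEC23A, COPG1 beside COPG2, KDELR2 beside KDELR1. Of 40 members tested, 28 were higher and 8 lower (limma, Benjamini-Hochberg adjusted p under 0.05). Over all 9150 genes tested, 87.7% were called, 42.9% as higher and 44.8% as lower. The share of members called either way, 90%, was thus near that of all genes, whereas 70% of members against 42.9% of all genes were called higher. Rises of at least 1.5-fold were found for 12 members, 30% of those tested against 16.9% of all genes, and falls of that size for 2 members, 5% against 20.3%. The median log2 fold change of the members was 0.35, and that of all tested genes -0.01. The members were chosen with earlier results of these data known, so these contrasts with all genes are a description. In 34 members, 85%, the values of the 5 HPC libraries and the 5 DMSO libraries did not overlap, against 79.6% of all tested genes. With libraries scaled to an equal total of nuclear-encoded genes, called the non-mitochondrial sum from here on, the median moved to 0.19 for the members and to -0.19 for all genes, 25 members were higher and 12 lower, and over all genes 2929 were higher and 5077 lower in place of 3922 and 4099. One member, SEC24D, entered the test only through its HPC values, and 1, GOSR2, did not reach the minimum of 1 FPKM in 5 libraries.

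**Figure D1:**
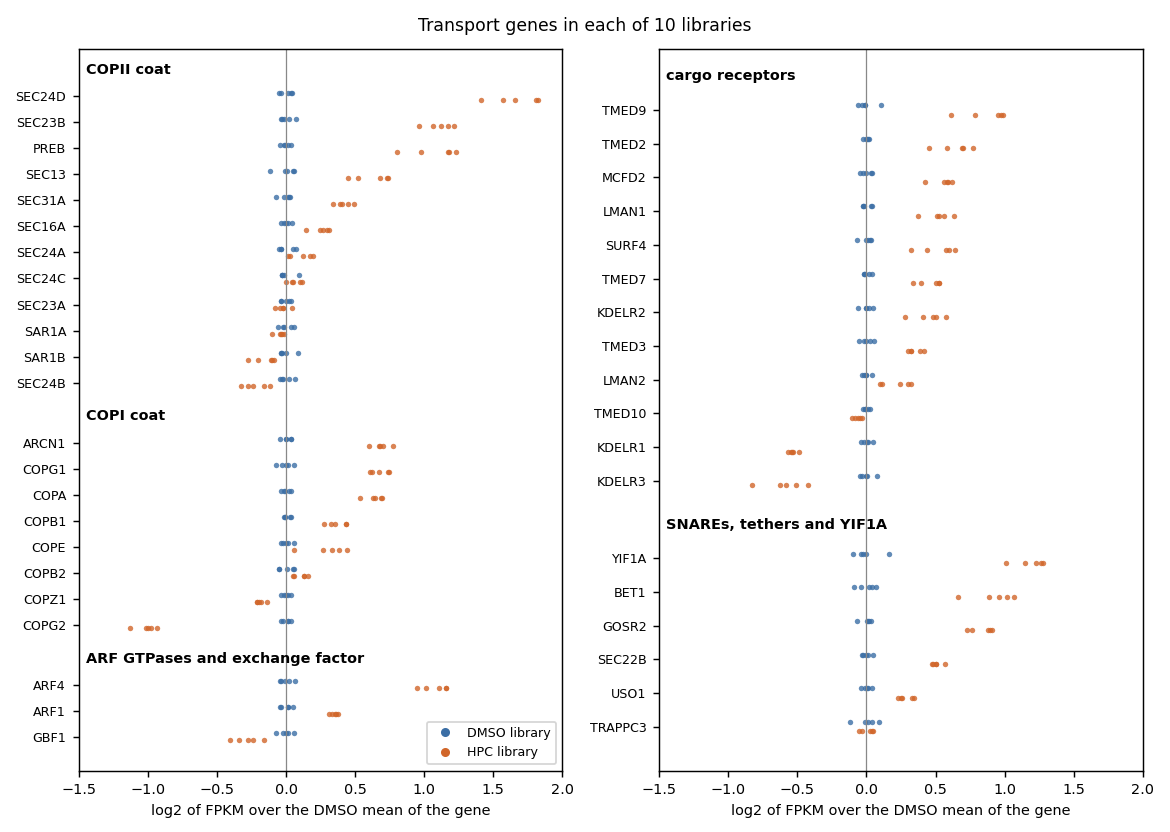
Each of the 41 transport genes in each library, as log2 of FPKM over the mean of the 5 DMSO libraries of that gene, ordered within roles. Blue points are DMSO libraries and orange points HPC libraries; SEC24D, YIF1A and SEC23B lie farthest to the right and COPG2 farthest to the left.

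The promoter windows of the genes with the largest rises and the largest fall are shown so that members that rose can be set beside 1 that fell. They come from RefSeq on GRCh38.p14, run 5′ to 3′ on the gene's strand, and cover 250 bases before to 50 after a transcript start. YIF1A lies on the minus strand (chr11:66289094-66289393), SEC23B on the plus strand with 2 starts (chr20:18507298-18507597 and chr20:18507690-18507989), and COPG2 on the minus strand (chr7:130668699-130668998). SEC24D, the largest rise, has no window there, and ARF4, TMED9, KDELR2 and USO1 have none either. All of these were called higher, so the motif search below leaves out only members that rose.

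YIF1A: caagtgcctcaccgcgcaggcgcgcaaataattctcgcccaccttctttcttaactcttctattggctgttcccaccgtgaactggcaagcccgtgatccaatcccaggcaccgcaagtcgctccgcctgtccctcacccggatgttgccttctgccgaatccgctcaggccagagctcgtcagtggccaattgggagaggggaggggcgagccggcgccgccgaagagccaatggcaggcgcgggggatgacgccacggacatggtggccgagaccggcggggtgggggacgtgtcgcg
SEC23B first start: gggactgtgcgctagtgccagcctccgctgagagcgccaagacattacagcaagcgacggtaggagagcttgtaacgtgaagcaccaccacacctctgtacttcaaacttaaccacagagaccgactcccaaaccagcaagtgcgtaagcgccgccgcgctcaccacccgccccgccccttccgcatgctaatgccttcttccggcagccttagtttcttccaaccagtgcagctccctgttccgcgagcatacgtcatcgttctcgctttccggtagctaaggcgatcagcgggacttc
SEC23B second start: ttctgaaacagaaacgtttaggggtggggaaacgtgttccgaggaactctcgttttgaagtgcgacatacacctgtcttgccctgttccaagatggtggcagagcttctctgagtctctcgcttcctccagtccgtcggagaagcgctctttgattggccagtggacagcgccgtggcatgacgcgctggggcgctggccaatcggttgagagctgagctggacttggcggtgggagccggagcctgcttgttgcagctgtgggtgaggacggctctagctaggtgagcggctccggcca
COPG2: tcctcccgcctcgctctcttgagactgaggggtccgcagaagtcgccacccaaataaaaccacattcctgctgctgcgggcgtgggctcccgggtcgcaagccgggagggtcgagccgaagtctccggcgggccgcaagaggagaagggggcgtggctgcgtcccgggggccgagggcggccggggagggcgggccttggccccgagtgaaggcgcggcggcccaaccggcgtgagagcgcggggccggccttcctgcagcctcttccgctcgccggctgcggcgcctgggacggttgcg

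A set of 5 motifs was searched on both strands in the windows of the 36 members that have one and in those of 27305 genes. They were ERSE (CCAAT and CCACG with 9 bases of any kind between them), ERSE-II (ATTGG and CCACG with 1 base between), TGACGTGG, which is the core of the element bound by XBP1 and ATF6, the cAMP response element TGACGTCA, and TGATGNAA, which C/EBP and ATF4 dimers bind. The core TGACGTGG was found in 9 of 36 members, 25%, against 0.927% of all genes. Those 9 were ARF1, COPA, COPB1, COPB2, GBF1, KDELR3, SEC16A, SEC23A and SEC24A. They include members that rose, GBF1 and KDELR3, which fell, and SEC23A, which was not called, and none of the windows printed above holds it. ERSE, ERSE-II and TGACGTCA were found in 0 members, against 0.0916%, 0.0696% and 2.25% of genes, and TGATGNAA in 1 member, MCFD2, against 4.46% of genes. A match is a description of letters in a window, not a binding site.

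The windows of 3 genes with the core, chosen after the matches were seen, follow with it in capitals. COPA (chr1:160343201-160343500, minus strand) has it just downstream of the start, COPB2 (chr3:139389598-139389897, minus strand) holds it in reverse orientation far upstream of the start and across it, and KDELR3 (chr22:38467846-38468145, plus strand) has it in reverse orientation upstream of the start.

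COPA: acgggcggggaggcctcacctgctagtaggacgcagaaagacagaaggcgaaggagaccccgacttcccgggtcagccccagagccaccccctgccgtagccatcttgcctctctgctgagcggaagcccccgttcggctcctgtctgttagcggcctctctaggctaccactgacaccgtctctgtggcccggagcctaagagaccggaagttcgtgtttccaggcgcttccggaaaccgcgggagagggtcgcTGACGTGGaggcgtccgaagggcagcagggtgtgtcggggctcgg
COPB2: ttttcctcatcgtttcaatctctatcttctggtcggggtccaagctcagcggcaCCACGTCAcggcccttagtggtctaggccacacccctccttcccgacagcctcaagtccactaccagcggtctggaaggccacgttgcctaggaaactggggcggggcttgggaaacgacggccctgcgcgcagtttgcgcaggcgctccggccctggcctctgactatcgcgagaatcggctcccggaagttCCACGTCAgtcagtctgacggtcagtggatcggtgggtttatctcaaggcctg
KDELR3: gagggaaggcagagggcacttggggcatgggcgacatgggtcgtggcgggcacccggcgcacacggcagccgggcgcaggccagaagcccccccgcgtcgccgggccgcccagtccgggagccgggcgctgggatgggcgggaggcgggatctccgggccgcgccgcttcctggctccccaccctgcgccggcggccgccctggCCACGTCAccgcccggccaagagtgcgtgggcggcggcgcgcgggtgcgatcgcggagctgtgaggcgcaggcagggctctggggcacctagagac

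In the COPII coat, 7 of 12 genes were higher, 2 lower and 3 not called, with a median log2 fold change of 0.18. That is 58.3% higher and 16.7% lower, against 42.9% and 44.8% of all tested genes. SEC24D, a cargo-selecting adaptor of the inner coat (chromosome 4, 118722823 to 118838683, GRCh38), measured 0.902, 0.851, 0.906, 0.856 and 0.887 FPKM in DMSO replicates 1 to 5. In HPC it measured 3.12, 3.08, 2.77, 2.34 and 2.61 FPKM. Every HPC library was above every DMSO library (log2 fold change 1.55 ± 0.0686 SE). SEC24D, 1 of the 7 called higher, passed the filter only through HPC, so this is given as a description. SEC23B, the GTPase-activating subunit paired with SEC24 (chromosome 20, 18507482 to 18561415), measured 3.97, 3.9, 4.21, 3.92 and 4.06 FPKM in DMSO and 9.04, 9.29, 8.73, 7.82 and 8.39 FPKM in HPC. The groups did not overlap (log2 fold change 1.09 ± 0.0438 SE, adjusted p = 4e-11). PREB, the exchange factor that activates SAR1 (chromosome 2, 27130756 to 27134675), measured 3.61, 3.51, 3.71, 3.66 and 3.59 FPKM in DMSO and 8.15, 8.19, 8.47, 6.3 and 7.13 FPKM in HPC. It too rose without overlap (log2 fold change 1.05 ± 0.0687 SE, adjusted p = 8.08e-09), and its lowest HPC value was that of replicate 4.

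The cage genes SEC13 and SEC31A rose less, with log2 fold changes of 0.61 and 0.40, and so did SEC16A, which marks the exit sites, at 0.25. SEC24A had a log2 fold change of 0.11 with overlapping groups (adjusted p = 0.026). Its call was lost without any 1 of DMSO replicates 2, 3 and 5 or HPC replicates 1 and 2 (adjusted p = 0.0584, 0.057, 0.0631, 0.0657 and 0.0702), and its direction turned to -0.06 with the non-mitochondrial sum. SEC24B fell by 0.22 on the log2 scale and SAR1B by 0.15. Exons of SEC24A and SAR1B overlap on opposite strands for 385 bases, as do 42.9% of the exon bases of SEC24C with AC022400.8. The strand setting of the counting is not known here. Members of other roles share exon bases with other genes too. Examples are ARF4 (11.6% with ARF4-AS1), COPE (9.15% with AC002985.1), YIF1A (8.57% with CNIH2) and COPB1 (7.93% with AC018523.2). Whether reads of shared bases were counted for these members was not tested.

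The 3 COPII genes that were not called are each the partner of a relative that was. SEC23A measured 12.9, 12.3, 12.8, 12.6 and 12.3 FPKM in DMSO and 12.4, 13, 12.4, 11.9 and 12.2 FPKM in HPC (adjusted p = 0.406). SAR1A measured 5.77, 5.76, 6, 6.07 and 5.61 FPKM in DMSO and 5.72, 5.69, 5.67, 5.45 and 5.78 FPKM in HPC (adjusted p = 0.182). SEC24C measured 4.58, 4.57, 4.99, 4.63 and 4.57 FPKM in DMSO and 4.83, 5.07, 4.81, 5.02 and 4.68 FPKM in HPC (adjusted p = 0.098, or 0.0227 without DMSO replicate 3). In all 3 the groups overlapped. With the non-mitochondrial sum the 3 genes were called lower, at -0.19, -0.21 and -0.10 on the log2 scale.

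In the COPI coat, 6 of 8 subunit genes were higher and 2 lower, with a median log2 fold change of 0.33. The shares were 75% and 25%, against 42.9% and 44.8% of all tested genes. ARCN1, the delta subunit, measured 13.4, 12.7, 13.1, 13.4 and 13.1 FPKM in DMSO and 21.3, 22.4, 21, 19.9 and 20.9 FPKM in HPC. COPG1, one form of the gamma subunit (chromosome 3, 129249606 to 129277773), measured 17.7, 16.7, 17, 16.2 and 17.2 FPKM in DMSO and 28.5, 28.3, 27.1, 26.2 and 25.9 FPKM in HPC. Both rose by 0.68 on the log2 scale with no overlap (adjusted p = 1.27e-10 and 3.35e-10). COPA, the alpha subunit, had a log2 fold change of 0.63, COPB1 (beta) of 0.36 and COPE (epsilon) of 0.30, where HPC replicate 4 and the highest DMSO library both measured 13.1 FPKM when rounded. COPB2 (beta prime) had 0.10 with overlapping groups, and turned to -0.07 with the non-mitochondrial sum (adjusted p = 0.0551). COPZ1, the zeta subunit, fell by 0.19 on the log2 scale.

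COPG2, the other form of the gamma subunit (chromosome 7, 130506238 to 130668748), moved against its partner. It measured 9.62, 9.3, 9.38, 9.6 and 9.77 FPKM in DMSO and 4.72, 4.35, 4.83, 4.99 and 4.77 FPKM in HPC, the largest fall of the 40 members tested (HPC over DMSO 0.501, SE 0.0351 on the log2 scale, adjusted p = 1.07e-11). The imprinted gene MEST, which runs towards COPG2 on the opposite strand and shares 228 of its 4139 merged exon bases, fell from 2.8 ± 0.0796 to 0.0535 ± 0.0186 FPKM (SD, n = 5; limma log2 fold change -4.25, adjusted p = 3.1e-14). Whether reads of MEST were counted for COPG2 was not tested. The COPI subunit genes ranged from 19.2 to 44.8 length-scaled reads in DMSO, where COPG2 was the lowest and COPA the highest, and from 9.55 to 69.8 in HPC between the same genes. The highest level was 2.33 times the lowest in DMSO and 7.3 times in HPC.

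Of the ARF genes, ARF4 (chromosome 3, 57571363 to 57598220) measured 16.1, 15.4, 16.6, 15.8 and 15.5 FPKM in DMSO and 35.5, 35.5, 34.2, 30.6 and 32.1 FPKM in HPC. ARF1, the main GTPase that recruits COPI, measured 24.8, 23.3, 24.2, 23.4 and 24.2 FPKM in DMSO and 30.8, 31.2, 30.7, 30.2 and 29.8 FPKM in HPC. Both rose without overlap, by 1.07 ± 0.0413 and 0.35 ± 0.0243 SE on the log2 scale (adjusted p = 2.68e-11 and 1.2e-08). GBF1, the exchange factor that activates ARF proteins at the early Golgi, measured 16.3, 17.1, 17.8, 16.8 and 17.3 FPKM in DMSO and 14.5, 15.3, 13.5, 12.9 and 14.1 FPKM in HPC. Its change of -0.28 on the log2 scale ran opposite to that of its substrates (adjusted p = 3.11e-05).

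Among the cargo receptors, 9 of 12 were higher and 3 lower, with a median log2 fold change of 0.45. These are 75% and 25%, against 42.9% and 44.8% of all tested genes. TMED9, a p24 protein of the early secretory pathway, measured 22.5, 23, 25.3, 23.3 and 23.3 FPKM in DMSO and 45.4, 46.5, 46.1, 35.9 and 40.4 FPKM in HPC. TMED2, another p24 protein, measured 44.1, 43.6, 42.7, 43.3 and 43.8 FPKM in DMSO and 70.5, 74.1, 70.1, 59.6 and 65.3 FPKM in HPC. Both rose without overlap, by 0.86 ± 0.0669 and 0.64 ± 0.0473 SE on the log2 scale (adjusted p = 9.82e-08 and 2.69e-08). TMED10, the p24 protein that associates with TMED2, measured 29.7, 30, 30.5, 30.8 and 29.9 FPKM in DMSO and 29.6, 29, 29.3, 28.1 and 28.5 FPKM in HPC. It was called lower, by 0.06 on the log2 scale (adjusted p = 0.0155). TMED7 and TMED3 had log2 fold changes of 0.45 and 0.33. An annotated readthrough transcript, TMED7-TICAM2, holds 24% of the merged exon bases of TMED7, so reads of the 2 genes can be shared.

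LMAN1, the mannose-binding receptor ERGIC-53, and its calcium-binding partner MCFD2, which together export coagulation factors, rose by 0.52 and 0.55 on the log2 scale (adjusted p = 3.22e-08 and 7.79e-09). SURF4, a receptor for soluble secreted proteins, rose by 0.51. LMAN2, a related lectin, had a log2 fold change of 0.22, which dropped to 0.05 with the non-mitochondrial sum (adjusted p = 0.258).

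The 3 KDEL receptors, which return chaperones from the Golgi to the endoplasmic reticulum, split. KDELR2 (chromosome 7, 6445953 to 6484242) measured 46.5, 43.1, 45, 44.8 and 45.5 FPKM in DMSO and 62.7, 67, 63.7, 54.7 and 59.8 FPKM in HPC. KDELR1 (chromosome 19, 48382570 to 48391553) measured 55.2, 55, 56.6, 53.5 and 54.1 FPKM in DMSO and 37.7, 37.9, 39.1, 37 and 37.5 FPKM in HPC. KDELR3 (chromosome 22, 38468062 to 38483447) measured 8.86, 9.36, 8.59, 8.67 and 8.91 FPKM in DMSO and 6.61, 6.24, 5.92, 4.99 and 5.74 FPKM in HPC. No receptor had overlapping groups: KDELR2 rose by 0.45 ± 0.0453 SE, KDELR1 changed by -0.54 ± 0.0228 SE and KDELR3 by -0.59 ± 0.0606 SE on the log2 scale (adjusted p = 6.04e-07, 7.31e-11 and 8.03e-07). Exons of DAGLB on the same strand cover 9.42% of the merged exon bases of KDELR2, so reads of DAGLB and KDELR2 can be shared. DAGLB had a log2 fold change of 0.19.

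Of the SNAREs, tethers and Golgi membrane proteins, 4 of 5 tested were higher in limma and 0 lower, also 0 at an unadjusted p under 0.05 and 0 in voom, with TRAPPC3 not called. That is 80% higher and 0% lower in limma, against 42.9% and 44.8% of all tested genes. TRAPPC3 was called lower with the non-mitochondrial sum (log2 fold change -0.16, adjusted p = 0.0015). YIF1A, a Golgi membrane protein of the YIP1 family (chromosome 11, 66284580 to 66289170), measured 3.95, 3.3, 3.53, 3.43 and 3.47 FPKM in DMSO and 8.57, 8.49, 8.28, 7.12 and 7.82 FPKM in HPC. BET1, a SNARE of carriers from the endoplasmic reticulum, measured 3.71, 3.77, 3.51, 3.64 and 3.38 FPKM in DMSO and 7.29, 7.55, 7.01, 5.71 and 6.64 FPKM in HPC. SEC22B, another SNARE of this step, measured 9.53, 9.21, 9.43, 9.28 and 9.76 FPKM in DMSO and 13.4, 14, 13.1, 13.4 and 13.2 FPKM in HPC. All 3 rose without overlap, by 1.17 ± 0.0564, 0.90 ± 0.0643 and 0.50 ± 0.0262 SE on the log2 scale (adjusted p = 2.73e-10, 1.73e-08 and 5.47e-10).

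USO1, the tether p115, had a log2 fold change of 0.28. TRAPPC3, a core subunit of the TRAPP tethering complex, measured 5.8, 5.91, 6.12, 5.29 and 5.71 FPKM in DMSO and 5.56, 5.92, 5.86, 5.94 and 5.62 FPKM in HPC, with overlapping groups (adjusted p = 0.911). GOSR2, a SNARE of the early Golgi, measured 0.54, 0.544, 0.514, 0.551 and 0.542 FPKM in DMSO and 1.01, 0.991, 0.999, 0.891 and 0.912 FPKM in HPC. Its low FPKM goes with a length divisor 6.72 times its merged exon length, and 3750 to 7183 reads lay behind each value. With no filter it had a log2 fold change of 0.73 (limma, SE 0.0439, adjusted p = 4.77e-08), and on recovered reads of 0.84 (voom, SE 0.0403, adjusted p = 4.29e-15), so it was called higher in both fits that included it.

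A factor that scales a whole library leaves the ratio of 2 of its genes nearly as it is, and 15 such ratios of close relatives or partners were compared. Of these, 12 differed between HPC and DMSO (exact two-sided permutation test, Benjamini-Hochberg adjusted p under 0.05). Ratios of other gene pairs were not tested, so no background share stands beside this count. Among single genes, 79.6% of all tested had groups that did not overlap. The pairs were drawn from members chosen with earlier results of these data known, so the count is a description. The smallest possible p is 0.00794, which became 0.0119 after adjustment. The ratio COPG1/COPG2 rose 3.19-fold, SEC23B/SEC23A 2.16-fold, KDELR2/KDELR1 1.98-fold, ARF4/ARF1 1.65-fold and TMED2/TMED10 1.63-fold, each at the smallest possible p. SEC24A/SEC24B and LMAN1/LMAN2 rose by 0.32 and 0.30 on the log2 scale and KDELR3/KDELR2 dropped to 0.487 of its DMSO value, also at the smallest p. The ratios SEC24D/SEC24C and SEC24D/SEC24A, 2.8 and 2.72 times their DMSO values, are among the 12, but SEC24D passed the filter only through HPC, so both are given as a description. SEC31A/SEC13 and TMED3/TMED7 changed to 0.866 and 0.92 of the DMSO value (exact permutation adjusted p = 0.0198 for both), and TMED3/TMED7 turned direction after quantile normalization.

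The 3 ratios that did not pass were SAR1B/SAR1A, KDELR3/KDELR1 and LMAN1/MCFD2. Their log2 differences were -0.10 ± 0.052, -0.05 ± 0.0682 and -0.03 ± 0.0163 SE (exact permutation adjusted p = 0.11, 0.5 and 0.136). LMAN1/MCFD2, the ratio of a receptor to its partner, stayed between 2.02 and 2.08 reads per read in DMSO and between 1.96 and 2.07 in HPC. Its difference passed without HPC replicate 2 (-0.04, exact permutation adjusted p = 0.0366) and after quantile normalization (-0.21, 0.0108), and with 1 FPKM added it was 0.02 (0.255).

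**Figure D2:**
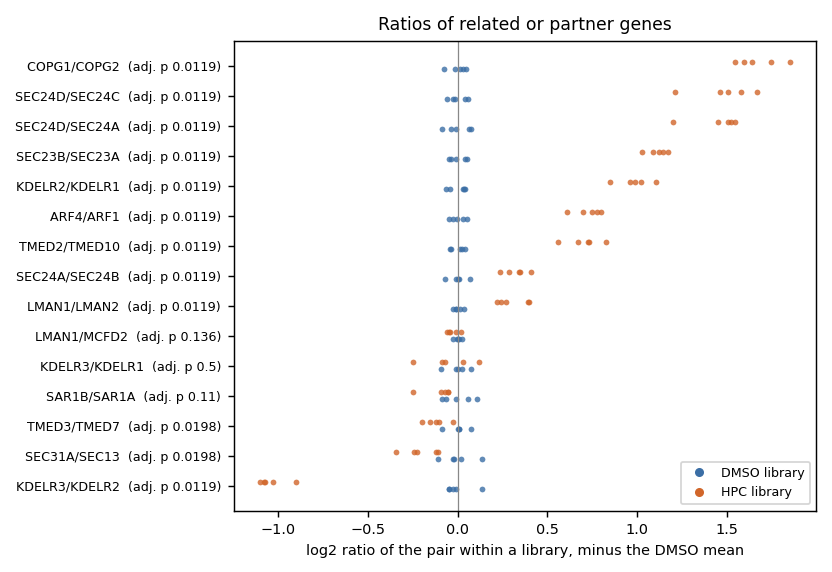
Log2 ratio of each pair within a library, minus the mean of the 5 DMSO libraries; blue points are DMSO libraries and orange points HPC libraries. The HPC libraries lie apart from the DMSO libraries for COPG1/COPG2 and SEC23B/SEC23A, and among them for LMAN1/MCFD2 and KDELR3/KDELR1.

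In length-scaled reads, the make-up of the families shifted. SEC23B held 41.8% ± 0.775 (SD, n = 5) of the SEC23 total in DMSO and 61.1% ± 0.978 in HPC, so that the order of the SEC23 genes turned while the total rose 1.47-fold. SEC24D, the smallest part of the SEC24 total, went from 5.52% ± 0.109 to 15.6% ± 1.53, and the total from 42.5 ± 0.827 to 47.6 ± 2.04 length-scaled reads. COPG2 went from 31.3% ± 0.752 to 12.3% ± 0.921 of the COPG total, which rose 1.26-fold. KDELR2 went from 36.7% ± 0.817 to 53.6% ± 1.39 of the KDEL receptor total and passed KDELR1, which went from 55.8% ± 0.732 to 41.1% ± 1.61. The receptor total itself was 223 ± 3.34 in DMSO and 209 ± 10.7 in HPC, 0.937 of the DMSO level. ARF4 went from 34.9% ± 0.621 to 47% ± 1.28 of the sum of ARF1 and ARF4, which rose 1.57-fold. The SAR1 genes kept SAR1A in front, with 73.3% ± 1.13 in DMSO and 74.8% ± 1.09 in HPC.

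**Figure D3:**
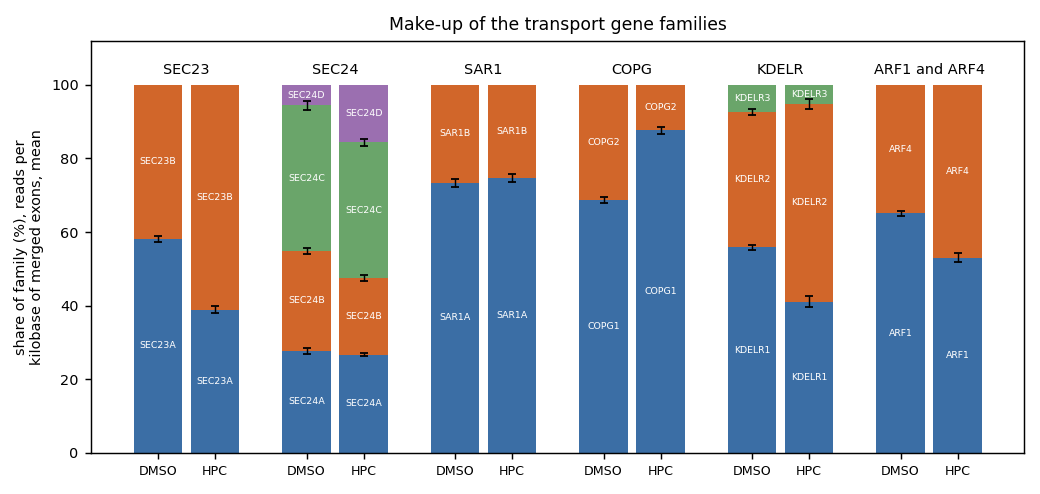
Share of each gene in its family in DMSO and in HPC, as the mean percentage over 5 libraries of reads per kilobase of merged exons; error bars are SD of the share below them. SEC23B and KDELR2 become the largest parts of their families in HPC, SEC24D grows from 5.52% to 15.6% and COPG2 shrinks from 31.3% to 12.3%.

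The 5 HPC libraries did not stand alike. Of the 28 members that were higher, 22 had their lowest HPC value in replicate 4, and their median log2 difference from the DMSO mean was 0.39 in that library, against 0.57, 0.62, 0.55 and 0.49 in replicates 1, 2, 3 and 5. Replicate 4 was also the lowest in 32.8% of all 3922 genes called higher, where the library medians lay between 0.46 and 0.49. Without it, 27 members were called higher and 8 lower, of 39 tested. SEC24D no longer passed the filter there, as was so without any other HPC library.

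The further genes of this pathway, 71 tested in 6 lists, were higher in 43 cases and lower in 22, with a median log2 fold change of 0.23. That is 91.5% called, near the 87.7% of all tested genes, with 60.6% higher and 31% lower against 42.9% and 44.8%. The lists, too, were chosen with earlier results of these data known. Of 9 COPII assembly and exit site factors, 7 were higher and 2 lower, 77.8% and 22.2%. MIA2 and MIA3, which help load bulky cargo such as collagens, had log2 fold changes of 2.27 and 0.69, and TMEM39A of 1.07. MIA2 passed the filter only through HPC, where it measured 3.54 ± 0.0657 FPKM against 0.655 ± 0.0535 in DMSO (SD, n = 5). Of 7 COPI and ARF regulators, 4 were higher and 1 lower, 57.1% and 14.3%, with TMEM115 at 0.87, ARFGAP3 at 0.63 and ARF3 at -0.71. Of 13 other cargo receptors and adaptors, 8 were higher and 5 lower, 61.5% and 38.5%. TMED5, a p24 protein, and TMED1 had log2 fold changes of 1.01 and 0.65, while ERGIC1, a protein of the intermediate compartment, fell from 7.29 ± 0.0728 to 3.1 ± 0.156 FPKM (limma log2 fold change -1.21, adjusted p = 1.34e-12).

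Of 17 other SNAREs, fusion factors and members of the Dsl1 tether, 12 were higher and 4 lower, among them the SNAREs YKT6 at 0.77 and BNIP1 at 0.72, and SCFD2 at -1.60. Their shares were 70.6% higher and 23.5% lower, against 42.9% and 44.8% of all tested genes. The TRAPP list went the other way, with 9 of 13 subunits lower and 3 higher and a median of -0.35. These are 69.2% lower and 23.1% higher, against 44.8% and 42.9% of all tested genes. TRAPPC9 had a log2 fold change of -1.41 and TRAPPC1 of -0.82, whereas TRAPPC6B rose by 0.79. TRAPPC9, TRAPPC12 and SCFD2 passed the filter only through DMSO, with every HPC value below 1 FPKM, and TRAPPC2, also lower, lay between 0.905 and 1.19 FPKM in HPC. The count of lower TRAPP genes therefore includes genes that the filter admitted through the group where they are high. Of 12 RAB GTPases and golgins, 9 were higher and 1 lower, with the Golgi stacking protein gene GORASP2 at 0.82, the golgin GOLGA5 at 0.79 and RAB6A at 0.69. In this list 75% were higher and 8.33% lower, against 42.9% and 44.8% of all tested genes.

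Transcription factors known to act on export genes, and the proteins that activate them, were mostly higher: 7 of 10 tested rose and 3 fell. These are 70% and 30%, against 42.9% and 44.8% of all tested genes. XBP1 had a log2 fold change of 2.71, ERN1, the kinase and RNase that splices XBP1 mRNA, of 2.30, ATF4 of 2.16, CREB3 of 1.44, CREB3L2 of 1.11 and ATF6 of 1.02. MBTPS2, a protease that cleaves ATF6, had 0.13 and its partner MBTPS1 -0.13, ATF6B -0.16 and CREB3L1 -0.44. CREB3L4 stayed below the filter, at 0.642 ± 0.0585 FPKM in DMSO and 0.222 ± 0.0405 in HPC (SD, n = 5). These are levels of RNA per gene. Splicing of XBP1 mRNA, cleavage of ATF6 and the activity of these factors were not measured.

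**Figure D4:**
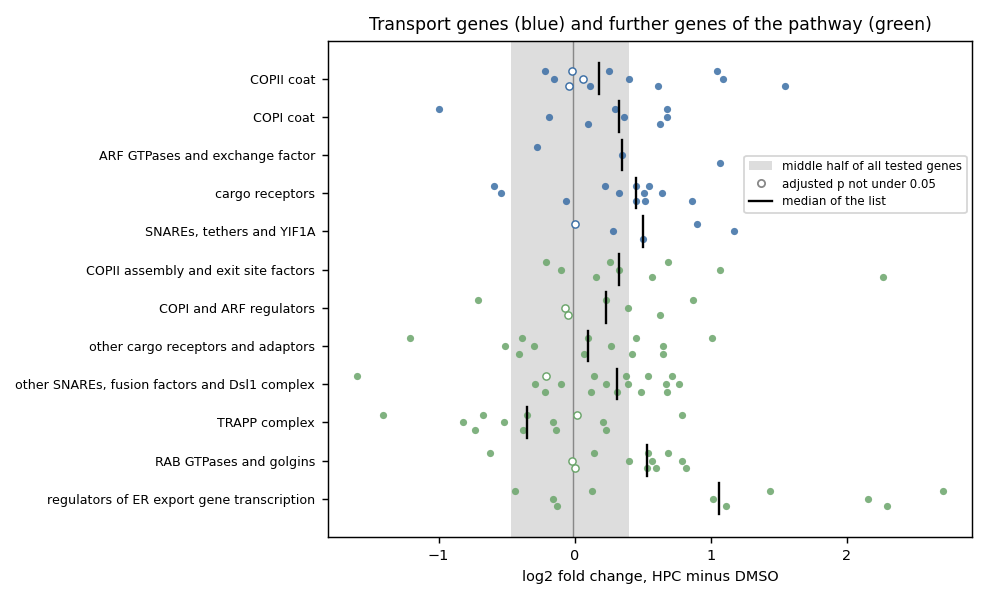
Log2 fold changes of tested genes by list, transport genes in blue and further pathway genes in green; filled points had an adjusted p under 0.05, black bars are list medians and the grey band spans the middle 50% of all tested genes. List medians lie to the right of 0 except for the TRAPP complex, at -0.35.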

How the data were processed

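Poly(A) RNA of 10 libraries was sequenced as paired-end reads, per the labels' protocols. The authors deposited 1 table of FPKM for 16734 genes. Tools named in the submitters' processing notes are STAR 2.7.7a, fastp 0.23.2 and edgeR, and the build named there is GRCh38.p13. For read counting, strand and annotation, the settings were not given in the sources used here. Within each of 15208 genes above 0 in at least 3 libraries, values were whole multiples of 1 read within 0.0001, which gave reads and implied gene lengths. Of 9145 tested genes with a length, 89.4% had an implied length within 5% of the summed transcript length in GENCODE 29 (GRCh38), a median 2.32 times the merged exon length. Genes with many annotated transcripts therefore have low FPKM.

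The 9150 genes that reached 1 FPKM in 5 or more libraries were tested on log2(FPKM + 0.1), which understates changes of low genes, with limma 3.58.1 in R 4.3.3 (trend, robust, two-sided, Benjamini-Hochberg over all tested genes). Fold changes are on that scale. The model was tested on simulated data: in a simulation of HPC against DMSO with 8797 genes, 100% of changes of 1.5-, 2- and 4-fold were recovered, and 12 of 203 calls were false. The simulation changed few genes, gave every gene the same spread and held no shift of whole libraries. In the real data 87.7% of genes were called, so its share of false calls cannot be carried over to them. Libraries of a group differed by 13.2 to 32 times counting noise (chi-square per degree of freedom), so none was taken for a copy. The members and lists were chosen with earlier results of these data known. All members are named. Library values are given for the 3 largest called changes of each role, for members not called or not tested, and for both genes of some of the ratios discussed. The 3 largest called changes of each further list are named. Alternatives changed the pseudocount, filter, scaling, test, variance model, block and libraries. Python 3.11.15 was used with SciPy 1.17.1, NumPy 2.4.6 and pandas 2.3.3, and figures were drawn with matplotlib 3.10.9.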

Additional observations from a re-analysis of the deposited data

Results flagged for a closer look

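In 3 of 82 groups of 5 libraries (41 genes in DMSO and in HPC), 1 library lay far from the others by Dixon's criterion, which chance meets in about 1 of 20 groups. SEC24C measured 4.99 FPKM in DMSO replicate 3 and 4.57 to 4.63 in the other DMSO libraries. SAR1B measured 4.19 FPKM in DMSO replicate 1 and 3.85 to 3.94 in the others. GOSR2 measured 0.514 FPKM in DMSO replicate 3 and 0.54 to 0.551 in the others.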

How the results depend on the processing

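Of 40 members, 33 kept their direction and their side of the threshold in every one of 20 alternatives that tested them. With the non-mitochondrial sum, SEC24A turned to -0.06 (adjusted p = 0.168), SEC24C to -0.10 (0.0149), COPB2 to -0.07 (0.0551) and TRAPPC3 to -0.16 (0.0015), 5 COPII genes instead of 2 and 1 SNARE or tether gene instead of 0 were lower, and SEC23A and SAR1A were called lower. With the total set equal in every library (TPM), SEC24A (0.0972) and COPB2 (0.059) lost their calls, and after quantile normalization SEC24C was called higher and the ratio TMED3/TMED7 turned to 0.05. A filter of at least 5 FPKM left 4240 genes and 32 members, with 1969 genes higher and 1836 lower, and 3 COPII genes higher and 0 lower. Without a filter or with voom on genes with at least 100 recovered reads, the latter chosen after seeing the data, 29 members were higher and 8 lower. Over all genes, 5220 were higher and 6060 lower of 16734 without a filter. With that voom fit, 4698 were higher and 5405 lower of 11762. Same-numbered libraries of the 2 groups deviated together with correlations of -0.0593, 0.066, 0.199, 0.0165 and 0.136, so the numbers were not taken to pair them, and 2 of 5 DMSO libraries correlated best with their own number. With a replicate block 28 members were higher and 8 lower, and 3892 genes were higher and 4077 lower. Leaving out 1 library gave 26 to 28 members higher and 8 lower. Without any 1 of the HPC libraries 39 members were tested, as SEC24D no longer passed the filter. Each value of a member rested on at least 1183 recovered reads.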
